A study of Mus musculus with 4 samples.

Results

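The surroundings of Bdnf and Arc, a pair of activity-regulated genes, were examined for CTCF occupancy in mouse hippocampus. Peaks were taken from chromosome 2 between 109000000 and 110100000 for Bdnf and from chromosome 15 between 74000000 and 75000000 for Arc (mm9). Of 15109 CTCF peaks in all, 19 met this rule, and all 19 lay around Arc. None lay in the Bdnf window. The peaks come from chromatin immunoprecipitation sequencing (ChIP-seq) of hippocampus from C57/Bl mice, with 2 libraries made with a CTCF antibody and 2 libraries of input, the same kind of chromatin sequenced with no antibody step. The mice carry no stated allele or treatment, their age is not given in the labels, and the tissue is bulk hippocampus, so that neurons and glia cannot be told apart. Peaks were called on the 4 libraries combined, so no value has a replicate error, and read depth per library is unknown. The series text counts 1 input and the labels 2.

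CTCF recognises a long DNA motif through its zinc fingers and halts the cohesin complex as it extrudes chromatin loops, so that its sites often mark loop ends and domain borders. Bdnf encodes brain-derived neurotrophic factor, a secreted ligand of the receptor TrkB that supports neuronal survival and synaptic plasticity. It is transcribed from several alternative promoters, of which promoter IV is the best known for responding to neuronal activity through calcium signalling and the factor CREB. Arc encodes a cytoskeleton-associated protein that promotes the endocytosis of AMPA receptors at synapses and is induced within minutes of activity. Its induction is known to use enhancer elements upstream of the promoter.

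The Bdnf promoters are shown first because the rest of the result at this gene is an absence of peaks. RefSeq (GRCm38.p6) lists 7 Bdnf starts, all on the plus strand, each with a window of 300 bases around it. Both strands were searched for the middle of the CTCF consensus, which reads CCANN followed directly by AGNNGGC with N for any base. The shorter AGNNGGC, which it contains, was also searched alone. No promoter window was available for Arc, so its promoter was not searched and cannot be compared. The longer motif was found in 1 of the 7 windows, that of the third start in the direction of transcription, which is promoter IV in the usual numbering of Bdnf exons. The match, GCCCTCTCGTGG, lay on the minus strand and ran from 18 to 7 bases before the start. In the same window the letters cacgtca, part of the element through which CREB acts at this promoter, stand before it. The bases aggcagcgtgga lie between them. The window of the first start is given for comparison and held only the shorter motif, with 4 matches, 2 of which overlap on opposite strands. Capitals mark the matches.
Bdnf start 1: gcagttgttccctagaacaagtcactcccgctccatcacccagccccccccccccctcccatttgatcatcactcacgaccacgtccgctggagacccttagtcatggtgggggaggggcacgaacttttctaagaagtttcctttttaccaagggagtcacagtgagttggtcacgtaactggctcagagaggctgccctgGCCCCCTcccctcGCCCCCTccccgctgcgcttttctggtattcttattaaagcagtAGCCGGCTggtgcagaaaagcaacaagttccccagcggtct
Bdnf start 3: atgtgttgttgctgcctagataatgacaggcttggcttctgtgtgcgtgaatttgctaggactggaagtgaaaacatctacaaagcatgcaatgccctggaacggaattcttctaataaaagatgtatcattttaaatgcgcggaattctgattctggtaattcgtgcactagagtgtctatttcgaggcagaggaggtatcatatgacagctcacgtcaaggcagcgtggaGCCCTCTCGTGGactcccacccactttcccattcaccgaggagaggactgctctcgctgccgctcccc

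Of all 32851 promoter windows of this length in the table, from 27025 genes, 2.43% held the longer motif and 59.8% the shorter one. These shares are per window, and a gene with 7 windows has more places for a match than a gene with 1. The share of such genes with any match was not computed. Among the 7 Bdnf windows, 6 held the shorter motif. Besides start 1, the windows of starts 2, 3, 5, 6 and 7 had 1 match each, and that of start 4 had none. GC content ranged from 38.7% at start 6 to 58% at start 5, with 48.7% at start 3, against a median of 52.7% over all windows. A match of letters is a description of the sequence and is not a measured CTCF site. The sequences are from another build than the peaks, so they were not placed on the peak coordinates.

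No CTCF peak overlapped Bdnf, whose span was taken as chr2:109515000-109567000 (mm9, rounded to the kb), or the 10 kb on either side. No peak lay within 100 kb of the gene either, and the 1.1 Mb window around it held 0 peaks. The promoter IV motif match was not placed on mm9, and the statement that no peak was called near it holds only as far as the match lies inside this window. The list holds only peaks past the authors' calling threshold, which is not stated, so weaker occupancy at Bdnf was not measured here and its absence is not shown.

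The nearest CTCF peak to Bdnf lay on the high-coordinate side, which is downstream of the gene, at chr2:110202693-110203397. It was 636 kb from the end of the gene, 705 bp wide, and had a score of 270. The score is the authors' own value for each peak. It ran from 13 to 3888 over the list with a median of 93, and it serves here only to rank peaks within the list. By score this peak ranked 2002 of 15109, with 13.3% of peaks at or above it. The next peaks outward on that side were 1161 kb away at chr2:110727907-110728250, with a score of 43, and 2520 kb away at chr2:112086538-112087118, with a score of 27. Both were weak, with 94.1% and 99.0% of all peaks scoring at least as high. The first was 344 bp wide, the smallest width in the list, which 568 peaks share, and the second was 581 bp wide.

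On the low-coordinate side, upstream of Bdnf, the nearest peak was farther away and weaker. It lay 1361 kb from the start of the gene at chr2:108153273-108153616, was 344 bp wide and scored 55, a rank of 12251 shared by 467 peaks. The second was 3671 kb away at chr2:105843038-105843569. It was 532 bp wide and strong, with a score of 552 and a rank of 783. The third, at chr2:105509736-105510312, was 577 bp wide and 4005 kb away, and scored 79 with a rank of 9266. Going outward from Bdnf, the first peak at or above the list's upper quartile, a score of 163, was therefore 636 kb away downstream and 3671 kb away upstream.

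Bdnf thus lay inside a peak-free stretch of 2.05 Mb, from 108153617 to 110202692 on chromosome 2. The middle of the gene was 67.7% of the way along it, nearer to the stronger of the peaks that bound it. Of the 15089 stretches between adjacent peaks in the list, 217 were at least as long (1.44%), and the median stretch was 31.7 kb. On chromosome 2 it ranked 16 of 1302, the longest there being 5.47 Mb. Long stretches take up much of the genome, however. Those of at least this length made up 33.1% of the summed chromosome spans. Of all positions in the spans, 24.3% were at least 636 kb from a peak. That is the distance of the nearest edge of Bdnf, whose other positions lay farther from any peak. Windows without a peak were also common: of 2298 full windows of 1.1 Mb over all chromosomes, 619 (26.9%) held none, and on chromosome 2, 32 of 162 (19.8%). A peak count of 0 at Bdnf is therefore a frequent value in this list.

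**Figure D1:**
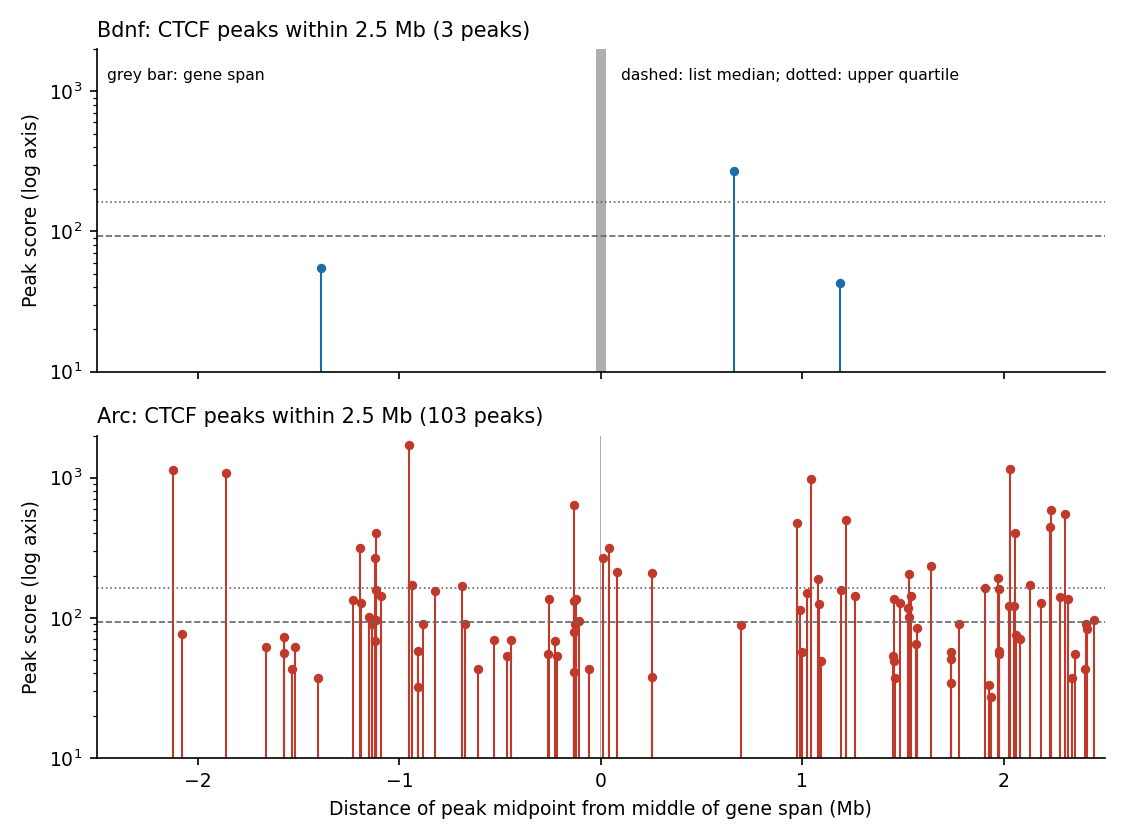
CTCF peaks within 2.5 Mb of Bdnf (upper panel) and Arc (lower panel): each stem is a peak, placed by the distance of its midpoint from the middle of the gene span (Mb) and drawn up to the authors' score (log axis). Bdnf has 3 peaks in this range and Arc 103; the dashed line is the list median of 93 and the dotted line the upper quartile of 163.

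**Figure D2:**
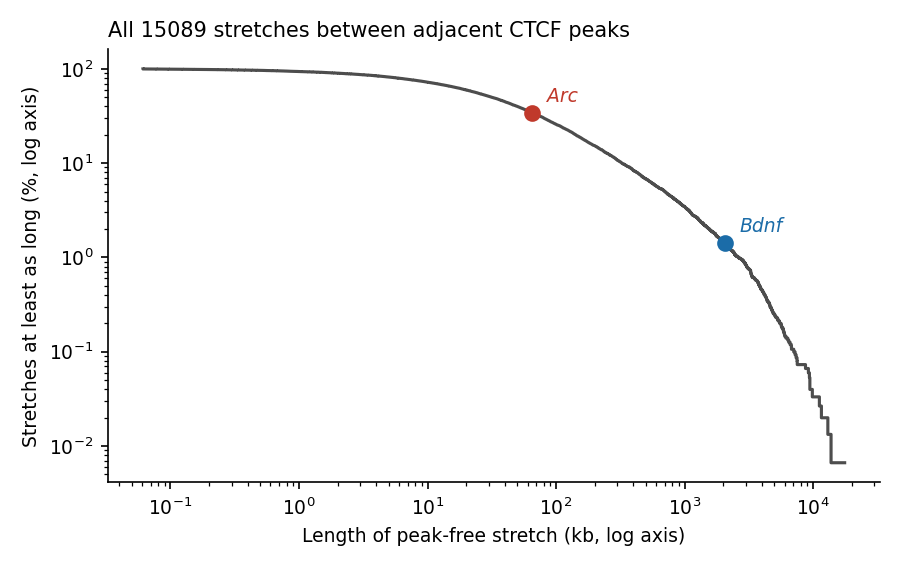
Share of the 15089 peak-free stretches that are at least as long as the length on the x axis (kb), both axes logarithmic. The stretch holding Arc, 65.5 kb, is exceeded or matched by 34.3% of stretches, and the stretch holding Bdnf, 2049 kb, by 1.44%. By length, stretches at least as long as that of Arc make up 92.15% of the summed chromosome spans. For Bdnf this share is 33.1%.

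Around Arc, CTCF peaks were frequent, although none overlapped the gene itself, taken as chr15:74499000-74503000 (mm9, rounded to the kb). With 10 kb on either side there was 1 peak, at chr15:74509294-74510081. It lay 6.29 kb from the high-coordinate end of the span. Arc is known to be transcribed towards lower coordinates, which is background knowledge, since the tables used here give no strand for it. On that basis the high-coordinate side is called upstream of Arc, here and below, and the low-coordinate side downstream. Because the span is rounded, the distance is known to about 1 kb. The peak was 788 bp wide and scored 265, a rank of 2043 of 15109, with 13.6% of peaks at or above it. Positions less than 6.29 kb from a peak made up 6.33% of the chromosome spans. That distance is from the nearest edge of the Arc span, whose other positions lay farther from any peak.

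Arc was followed upstream by further strong CTCF peaks. The second, at chr15:74539668-74540119, was 36.7 kb away. It was 452 bp wide and had the second highest score in the window, 313, for a rank of 1680. The third, at chr15:74579752-74580323, was 76.8 kb away and 572 bp wide, and scored 213 with a rank of 2706. These 3 peaks spanned 71.03 kb and all scored above the upper quartile of the list. The next stretch, of 174 kb, held none. It ended at a pair of peaks 2.26 kb apart, 251 and 254 kb from Arc. The nearer of them, at chr15:74754053-74754515, had the lowest score in the window, 38, and the other, at chr15:74756778-74757353, scored 208.

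Downstream of Arc, on the low-coordinate side, the nearest peak was weak. It lay 55.2 kb away at chr15:74443408-74443817, was 410 bp wide and scored 43, with 94.1% of peaks at or above it. The second, 107 kb away at chr15:74391609-74392083, was 475 bp wide and scored 95, a rank of 7446. The third, 121 kb away at chr15:74377626-74378303, was 678 bp wide and scored 137, a rank of 4703. The first peak at or above the upper quartile was reached only 132 kb from Arc, against 6.29 kb upstream. It was also the strongest of the window, at chr15:74366066-74367099, with a width of 1034 bp, a score of 640 and a rank of 608, and 4.04% of peaks scored as high.

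**Figure D3:**
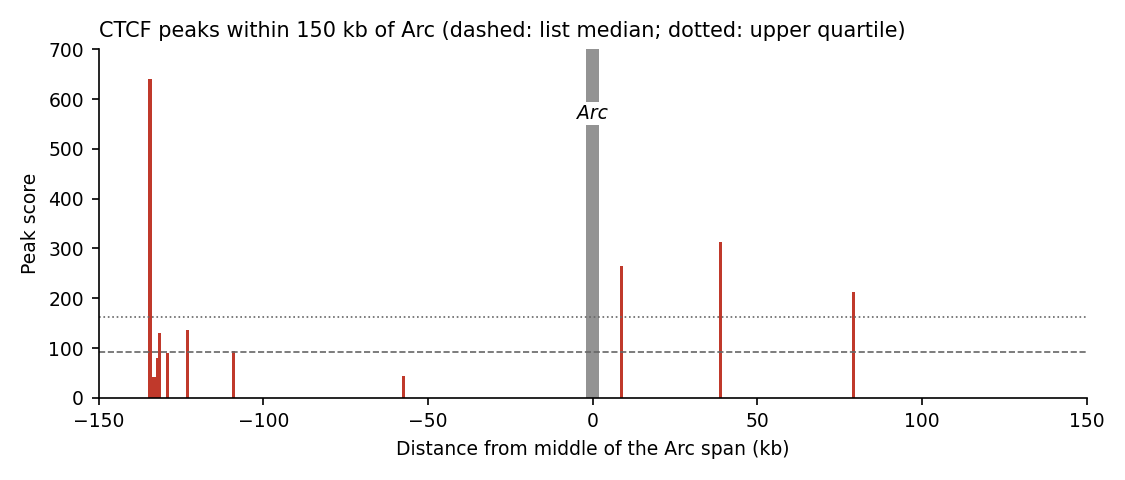
CTCF peaks within 150 kb of Arc: bars stand at the distance of each peak from the middle of the Arc span (kb, high-coordinate and upstream side to the right) and reach up to the authors' score (axis from 0). The 3 peaks upstream score 213 to 313 and stand above the dotted line at 163, while of the peaks downstream only the one of 640 does.

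The strong downstream peak belonged to a close group. Within 12.2 kb, from 74366066 to 74378303, lay 6 peaks with scores of 41 to 640. The first 4 of them had 82, 365 and 270 bp between them and formed a single region of 3.79 kb when peaks under 1 kb apart were joined. Of 14187 joined regions in the list, 13 held 4 or more peaks. The scores in this region, in order of coordinates, were 640, 41, 79 and 131. The second of these peaks, at chr15:74367182-74368303, was the widest in the window at 1122 bp and among the weakest at 41. Of the 869 peaks of the list wider than 1 kb, 3 scored 41 or less, this one included, and their median score was 349. The remaining peaks of the group, at 74371812 and 74377626, scored 90 and 137.

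Farther downstream, 6 scattered peaks completed the window, and 5 of them scored below the list median. Those at 74237670 and 74243371 lay 5.29 kb apart and scored 55 and 137. The peaks at 74270957 and 74282800 scored 68 and 53, and the latter had the smallest width of the list, 344 bp. The outermost, at 74036654 and 74055943, scored 53 and 69 and were 462 and 443 kb from Arc.

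The sides of Arc were compared by the number and score of their peaks. Downstream lay 14 peaks with a median score of 74, from 41 to 640, and 1 of them reached the upper quartile. Upstream lay 5 peaks with a median score of 213, from 38 to 313, and 4 of them reached it. In the whole list, 25.4% of peaks did. The contrast between the sides was not seen farther out. In the bins of 1 Mb centred 1 Mb from Arc, 6 of 22 peaks reached the upper quartile downstream and 4 of 17 upstream. Over 10 such bins on each side it was 10 of 37 downstream and 61 of 258 upstream. Within the window the scores of the sides overlapped, since its strongest peak lay downstream and its weakest upstream. This is a description of single peaks in 1 list, without replicates or a test.

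As a set, the 19 Arc peaks had scores and widths close to those of the list. Their median score was 90 against 93, and their median width was 463 bp, from 344 to 1122 bp, against 473 bp. Of the 19, 5 (26.3%) scored at or above the upper quartile, next to 25.4% in the whole list. Another peak midpoint lay within 10 kb of 10 of the 19 (52.6%), against 42.9% of all peaks, and 6 of the 10 belong to the group described above.

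**Figure D4:**
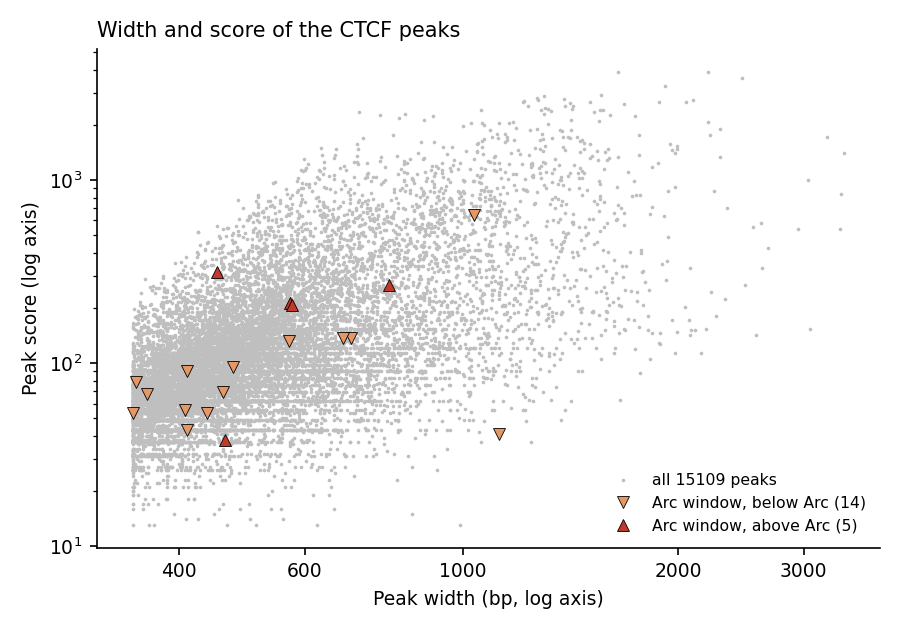
Width (bp) and authors' score of every peak in the list (grey) and of the 19 peaks of the Arc window, both axes logarithmic; downward triangles are the 14 peaks on the low-coordinate side of Arc and upward triangles the 5 on the high-coordinate side. The peak of 1122 bp with a score of 41 is among the 3 lowest of the 869 peaks wider than 1 kb.

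The number of peaks in the Arc window was high for the list. It held 19 per Mb (95% exact Poisson interval 11.4 to 29.7, which covers counting error only and treats peaks as independent), against 7.26 per Mb on chromosome 15. The Bdnf window held 0 per Mb (0 to 3.35), against 7.30 per Mb on chromosome 2. Peaks of this list are not independent, so both intervals are likely too narrow. Of the 19 Arc peaks, 6 lay within 12.2 kb, and 30.1% of all 1 Mb windows held no peak. Of 2525 full windows of 1 Mb over all chromosomes, 252 (9.98%) held 19 peaks or more, the median window held 2 and the fullest 75. On chromosome 15 it was 15 of 99 windows (15.2%). Just outside the Arc window, the nearest peaks lay 30.1 kb below it, with a score of 69, and 194 kb above it, with a score of 89. Just inside were the peaks of 53 and 208 already given. For Bdnf the nearest peaks outside were 846 kb below and 103 kb above the window.

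The wider surroundings were described in bins of 1 Mb by distance from the gene, centred up to 10 Mb away on each side. The bins around Bdnf held 80 peaks in all, and those around Arc 314. The bin of Bdnf held 0, and the other 20 had a median of 2.5 and a range of 0 to 21, with 6 of them empty. The bin of Arc held 19, and the other 20 had a median of 17 and a range of 0 to 48. Arc stood close to a step in peak density. The 8 bins farthest downstream of it held 7 peaks together, at most 2 each, whereas each of the other 13 bins held 8 to 48. Its 10 bins on the high-coordinate side held 258 peaks and the 10 on the other side 37. Around Bdnf these sums were 52 and 28, and most of the 52 lay in the 2 outermost bins, with 14 and 21.

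**Figure D5:**
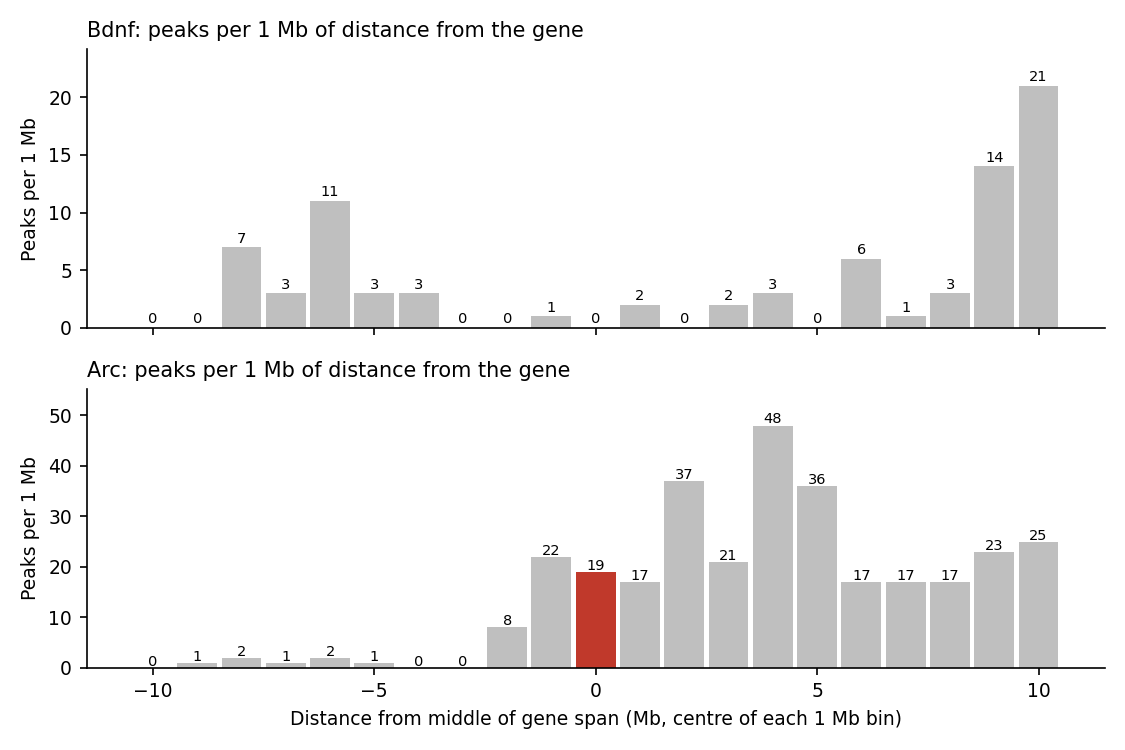
Number of CTCF peaks in bins of 1 Mb by distance from the middle of Bdnf (upper panel) and Arc (lower panel), with the coloured bar for the bin of the gene itself and the count above each bar. The Bdnf bin is at 0 among bins of 0 to 3 peaks out to 5 Mb on either side of it, and the Arc bin, at 19, stands near the low-coordinate edge of a dense region that begins 2 Mb away.

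By order along the chromosome in RefSeq (GRCm38.p6), the 5 genes on the low-coordinate side of Bdnf, nearest first, were Gm13924, Kif18a, Mettl15, Gm13923 and Hadhb-ps. Kif18a encodes a kinesin motor of the mitotic spindle and Mettl15 a mitochondrial RNA methyltransferase. On the other side were Gm13932, Lin7c, Platr8, Lgr4 and Ccdc34. Lin7c encodes a synaptic scaffold protein and Lgr4 a receptor for R-spondins. Next to Arc, on the low-coordinate side, came Mroh4, Adgrb1, Gm32168, Gm32839 and Gm41345, where Adgrb1 encodes an adhesion receptor that acts in phagocytosis and at synapses. On the other side came Gm32994, Jrk, 4933427E11Rik, Psca and Them6, where Psca encodes a membrane-anchored protein of the Ly6 family. Of these 10 neighbours each, 5 of Bdnf and 5 of Arc code for proteins. Only names and order were used from this build, so no peak was assigned to any of these genes.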

How the data were processed

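CTCF ChIP-seq of hippocampus from C57/Bl mice was represented by 1 peak list covering all samples. The authors used cutadapt, MACS2 version 2.0.10.20131216 and the build mm9, per the submitters' processing notes. Per the file header, the list joins ChIP 1 and 2 and input 1 and 2, so peaks were called on combined libraries. The score of each peak is a whole number, deposited by the authors with no stated scaling. Aligner, duplicate handling, calling threshold and reads per library are not given in the sources used, so depth is unknown and no interval over reads was possible.

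Starts were converted to positions counted from 1 (Python 3.11.15, pandas 2.3.3, numpy 2.4.6, scipy 1.17.1, matplotlib 3.10.9). Distances run between the nearest edges of peak and gene span. Gene spans are the rounded ones of the rule, since no mm9 annotation was used here. Chromosome spans run from first to last peak. Ranks count peaks with a higher score. Named peaks were those within 100 kb of a gene, the 3 nearest on each side and the highest and lowest scores in each window, and all other members are given more briefly. No test was run, since the list gives no value per library. The calculations were tested on simulated data. Windows and rules were chosen with earlier results of these data known. The bins by distance, the close group and the count of wide weak peaks were chosen after these peaks had been seen. Alternatives for score, joining, margin and window are given in the closing section.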

Additional observations from a re-analysis of the deposited data

How the results depend on the processing

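Of 41 alternatives over 9 results, 29 changed the value by no more than 1.5 times and 12 by more. The absence of peaks at Bdnf held for margins from none to 100 kb, and its window held 1 peak only when widened to 2 Mb. Without a margin, or with 5 kb, Arc had 0 peaks, with 50 kb 2 and with 100 kb 4. The Arc window held 9 peaks with scores at or above the list median, 5 at or above the upper quartile and 33 when widened to 2 Mb, which follow from the filters themselves. At scores at or above the median or the upper quartile, the stretch around Bdnf grew to 4359 kb for both. That around Arc grew to 117 kb and 142 kb. The distances to the nearest peak, 636 and 6.29 kb, were the same in all 3 filtered or joined lists. No paired analysis was possible because peaks were called on the 4 libraries together, and for the same reason no replicate could be left out. A stretch without peaks is no evidence of absent binding, since neither the depth nor the calling threshold is known.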

Other observations

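Beyond the window, the strongest CTCF peak within 2.5 Mb of Arc lay downstream of it at chr15:73546435-73547877 (mm9), 951 kb from the gene. It was 1443 bp wide and scored 1720, a rank of 66 of 15109. The 103 peaks in that range had a median score of 101, from 27 to 1720. The 3 peaks within 2.5 Mb of Bdnf scored 55, 270 and 43, and the peak of 270 is the only one of them above the list median of 93.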
